A study of Mus musculus with 11 samples.

Results

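The extracellular matrix genes described here are 40 genes for structural collagens, laminins, other basal lamina proteins, matrix proteoglycans and glycoproteins, and enzymes that cross-link or cleave matrix. They were taken as a named list by symbol, through the gene IDs of the count tables. All 40 were found among 24809 gene IDs in the RNA table and among 24541 in the table for H3K4me3, a histone mark that stands at active promoters. The series measured both in mouse ovarian granulosa cells, to find genes that respond to follicle-stimulating hormone (FSH). The 48 h eCG group came from C57BL/6 mice treated 48 h earlier with equine chorionic gonadotropin (eCG), a hormone with FSH activity in mice that the labels call FSH. The 0 h group came from untreated C57BL/6 mice. RNA had 3 libraries per group, all labelled postnatal day 21, from cells released by puncture of follicles, and H3K4me3 had 2 libraries per group with no age label. The labels give no untreated group at 48 h, so eCG and elapsed time cannot be told apart, and the design text calls the libraries biological replicates without saying whether animals were pooled.

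The basal lamina around a follicle separates the granulosa cells, which have no blood vessels of their own, from the vascular theca and stroma outside. It is built from networks of type IV collagen and laminin that nidogens and the proteoglycan perlecan join together, and its chain composition is known to change as follicles grow. Fibrillar collagens, fibronectin, elastic fibres and small proteoglycans belong mainly to the theca and stroma, lysyl oxidases cross-link collagen and elastin, and matricellular proteins bind matrix and cells without being its framework.

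The RNA libraries held between 12013849 and 26343971 counts and the H3K4me3 libraries between 11989769 and 17968033. Levels are given as CPM, counts per 1000000 counts of a library, after scaling between libraries by the trimmed mean method (TMM). Markers of the labelled cell type were abundant: Inha, an inhibin subunit, had 17571, 16708 and 16268 CPM at 48 h eCG, against 9043, 7208 and 8292 CPM at 0 h, and Inhbb, an inhibin and activin subunit, had 10619, 11848 and 10952 CPM at 48 h eCG, against 4924, 4280.1 and 4819.7 CPM at 0 h. All 11 granulosa markers were detected, as were markers of endothelium, mural cells, theca, stroma and oocyte. In bulk samples, fewer cells of a type and less RNA per cell cannot be told apart.

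The RNA library of 48 h replicate 1 stood apart from the other 2 libraries of its group in the matrix genes. The 40 genes together held 20761 CPM in 48 h replicate 1, 9852 CPM in replicate 2 and 10609 CPM in replicate 3, against 7923, 8547 and 9374 CPM in the 0 h libraries. Each of the 40 was higher in 48 h replicate 1 than the mean of replicates 2 and 3, by 0.20 to 1.87 on the scale of log2(CPM + 1) with a median of 1.08, while the median over all 14401 genes tested was 0.0026. The difference passed 1 on that scale for 22 of the 40 genes, against 2.38% of all genes tested.

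Genes that mark other cell types were high in the same library. Endothelial markers summed to 781, 251 and 313 CPM in 48 h replicates 1 to 3, against 132, 134 and 140.0 CPM at 0 h, and 10 of the 12 passed a difference of 1 in 48 h replicate 1. The most abundant were Cdh5, the cadherin of endothelial junctions, with 182, 67.1 and 72.9 CPM at 48 h eCG, against 31.4, 27.8 and 30.3 CPM at 0 h, and Eng, endoglin, with 114, 39.9 and 50.4 CPM at 48 h eCG, against 17.5, 20.4 and 21.5 CPM at 0 h. In the test described below, 11 of the 12 were called higher in RNA both with 48 h replicate 1 (median log2 fold change 1.77) and without it (1.11). Of all genes tested, 16% were called higher with that library and 18.2% without it. In H3K4me3, edgeR and DESeq2 called 0 of the 12, and 0 had an unadjusted p under 0.05 in either. In that assay edgeR called 6.35% of all genes tested higher and 2.08% lower, shares at which few of 12 genes would be called. Pericyte and smooth muscle markers summed to 652, 256 and 320 CPM at 48 h eCG, against 369, 357 and 354 CPM at 0 h, and 7 of 10 passed a difference of 1. The most abundant of these were Acta2, smooth muscle actin, with 180.0, 83.3 and 94.1 CPM at 48 h eCG, against 155, 137 and 127 CPM at 0 h, and Tagln, transgelin, with 72.4, 31.2 and 47.2 CPM at 48 h eCG, against 57.0, 54.9 and 46.7 CPM at 0 h. Of the 10 pericyte and smooth muscle markers, 3 were called higher and 0 lower in RNA with all libraries. Without 48 h replicate 1, 2 were called higher and 2 lower. The shares of all genes tested called lower were 15.8% and 17.9% in these fits. Oocyte markers summed to 100.4, 38.5 and 39.4 CPM at 48 h eCG, against 101, 108 and 93.8 CPM at 0 h, and 8 of 10 passed a difference of 1.

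The most abundant oocyte markers were Zp2, a protein of the zona pellucida, with 26.8, 9.48 and 10.1 CPM at 48 h eCG, against 20.3, 19.0 and 17.99 CPM at 0 h, and Gdf9, a growth factor that oocytes secrete, with 16.2, 7.72 and 6.27 CPM at 48 h eCG, against 19.9, 20.2 and 19.8 CPM at 0 h. For both, 48 h replicates 2 and 3 lay under all 0 h libraries. The red cell markers Alas2 and Slc4a1 were called higher. Alas2, an enzyme of heme synthesis in red cells, had 506, 153 and 649 CPM at 48 h eCG, against 86.5, 65.4 and 124 CPM at 0 h (log2 fold change 2.25 ± 0.47, adjusted p = 0.00767; 2.12 without 48 h replicate 1), and Slc4a1, the anion exchanger of the red cell membrane, had 27.5, 9.36 and 27.7 CPM at 48 h eCG, against 2.70, 2.42 and 4.70 CPM at 0 h (log2 fold change 2.69 ± 0.44, adjusted p = 0.00264; 2.46 without 48 h replicate 1). In both genes all 48 h libraries lay above all 0 h libraries, with replicate 2 the lowest of the 48 h group, while 4 globin genes were at 0 in every library.

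Fewer of the stromal, theca, immune, surface epithelium and granulosa markers passed a difference of 1 in 48 h replicate 1. Of the stromal markers 1 of 10 passed, and they summed to 406, 232 and 252 CPM at 48 h eCG, against 157, 162 and 163 CPM at 0 h. The most abundant were Cd34, a surface protein of stromal and endothelial cells, with 233, 139.8 and 149 CPM at 48 h eCG, against 35.2, 33.5 and 40.5 CPM at 0 h, and Nr2f2, a nuclear receptor of stroma, with 56.0, 45.9 and 48.4 CPM at 48 h eCG, against 59.3, 69.0 and 64.0 CPM at 0 h. Cd34 was called higher (log2 fold change 2.26 ± 0.19, adjusted p = 0.000232; 1.99 without 48 h replicate 1) and Nr2f2 lower (log2 fold change -0.36 ± 0.10, adjusted p = 0.0275; -0.45 without 48 h replicate 1). Of the theca and steroid markers 1 of 8 passed, with sums of 9830.3, 8554 and 8293 CPM at 48 h eCG, against 4839.8, 3247 and 3532 CPM at 0 h. Most of each sum was Hsd3b1, and the list was mixed. Of the 8, 3 were called higher and 3 lower (median log2 fold change -0.26), where 16% and 15.8% of all genes tested were. Without 48 h replicate 1, 3 were called higher and 4 lower (median -0.71), where 18.2% and 17.9% of all genes tested were. Hsd3b1, a steroid dehydrogenase, had 6986, 7102 and 6985 CPM at 48 h eCG, against 3447, 2429 and 2546 CPM at 0 h, and Cyp17a1, an enzyme of androgen synthesis, had 1482, 587 and 408 CPM at 48 h eCG, against 1126, 573 and 727 CPM at 0 h. Hsd3b1 was called higher (log2 fold change 1.32 ± 0.15, adjusted p = 0.000681; 1.33 without 48 h replicate 1), and Cyp17a1 was highest in 48 h replicate 1 and was not called.

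Of the immune markers 0 of 9 passed a difference of 1, with sums of 292, 169.8 and 230.1 CPM at 48 h eCG, against 206, 336 and 248 CPM at 0 h. Lyz2, lysozyme, had 141, 88.6 and 122 CPM at 48 h eCG, against 121, 170.0 and 129.6 CPM at 0 h, and Csf1r, a receptor of macrophages, had 41.7, 19.5 and 26.6 CPM at 48 h eCG, against 23.1, 43.2 and 34.9 CPM at 0 h. Both overlapped between groups. Of the surface epithelium markers 0 of 8 passed, with sums of 265, 192 and 169 CPM at 48 h eCG, against 164, 250.4 and 225 CPM at 0 h. Upk3b, a uroplakin, had 68.0, 49.8 and 39.4 CPM at 48 h eCG, against 26.9, 37.9 and 41.6 CPM at 0 h, and Krt8, a keratin, had 39.4, 41.6 and 39.1 CPM at 48 h eCG, against 49.6, 59.4 and 53.5 CPM at 0 h. Krt8 was called lower (log2 fold change -0.44 ± 0.09, adjusted p = 0.00842; -0.42 without 48 h replicate 1). Of the granulosa markers 1 of 11 passed, and they summed to 44712, 46532 and 45548 CPM at 48 h eCG, against 23381, 18097 and 20870 CPM at 0 h. Not all of them rose. In RNA, 8 of the 11 were called higher and 2 lower, where 16% and 15.8% of all genes tested were, and the counts were the same without 48 h replicate 1. In H3K4me3, 7 were called higher and 2 lower, where 6.35% and 2.08% of all genes tested were. The part of the marked cell types in the matrix values was not tested.

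**Figure D1:**
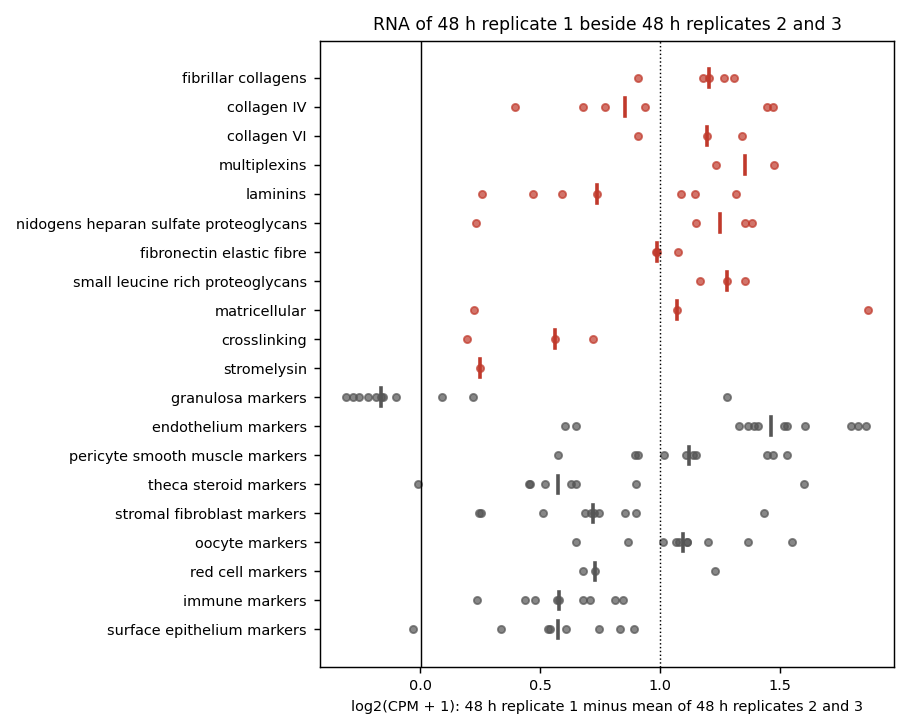
Each point is 1 gene, placed by its log2(CPM + 1) in RNA of 48 h replicate 1 minus the mean of 48 h replicates 2 and 3. Matrix genes are in red by role and cell type markers in grey, vertical bars are medians, the solid line marks no difference and the dotted line a difference of 1. All 40 matrix genes lie right of 0, from 0.20 to 1.87, and 10 of 12 endothelial markers lie past 1.

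The RNA comparison of 48 h eCG with 0 h used the quasi-likelihood test of edgeR, with p-values adjusted by Benjamini-Hochberg over all genes tested, and genes with an adjusted p below 0.05 are those described as called. Log2 fold changes are 48 h eCG over 0 h, each ± its standard error (SE). All 40 matrix genes passed the filter on low counts. With all libraries, 16 of them were called higher and 4 lower, where 16% of all genes tested were called higher and 15.8% lower. The share called higher was above that background (16 of 40), while the 4 lower calls were below it. The median log2 fold change was 0.68 over the 40 genes, against -0.03 over all genes tested.

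Without 48 h replicate 1, 17 of the 40 were called higher and 9 lower, where 18.2% of all genes tested were called higher and 17.9% lower. The 16 higher and 4 lower genes were all called again in the same direction, and Lamc1 joined the higher genes and Col5a2, Col4a3, Col4a4, Lama2 and Lamb1 the lower ones. The median log2 fold change of the 40 fell to 0.24. Without 0 h replicate 1, 2 or 3 in turn, 7, 7 and 8 of the 40 were called higher, where 15%, 10.9% and 11.1% of all genes tested in the same fits were. The share of the 40 without 0 h replicate 1 was close to that of all genes. Leaving out 48 h replicate 2 or 3 gave 20 and 17 higher calls, where 13.1% and 12.5% of all genes were. The lower calls numbered 4, 3 and 3 without each 0 h library and 3 and 3 without 48 h replicate 2 or 3, where 14.2%, 9.53%, 8.78%, 8.85% and 8.28% of all genes were lower. DESeq2 with all libraries did not call Col5a1, Col4a1, Col4a2, Dcn or Bgn and called Lamb2, Lamc1 and Eln higher, and limma did not call Col5a1, Col4a2 or Bgn. Library size alone ended the calls of Col5a1, Col4a2 and Bgn, and the size factors of DESeq2 in edgeR ended those of Col4a2 and Col4a5. Of the 20 called genes, 10 kept their calls in all 12 alternative fits, and these were Comp, Sparc, Loxl1, Loxl2, Lama4, Agrn, Col18a1, Mmp11, Lama1 and Col4a6. The same share over all called genes is not given here, so this count does not set the 40 genes apart from other genes.

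**Figure D2:**
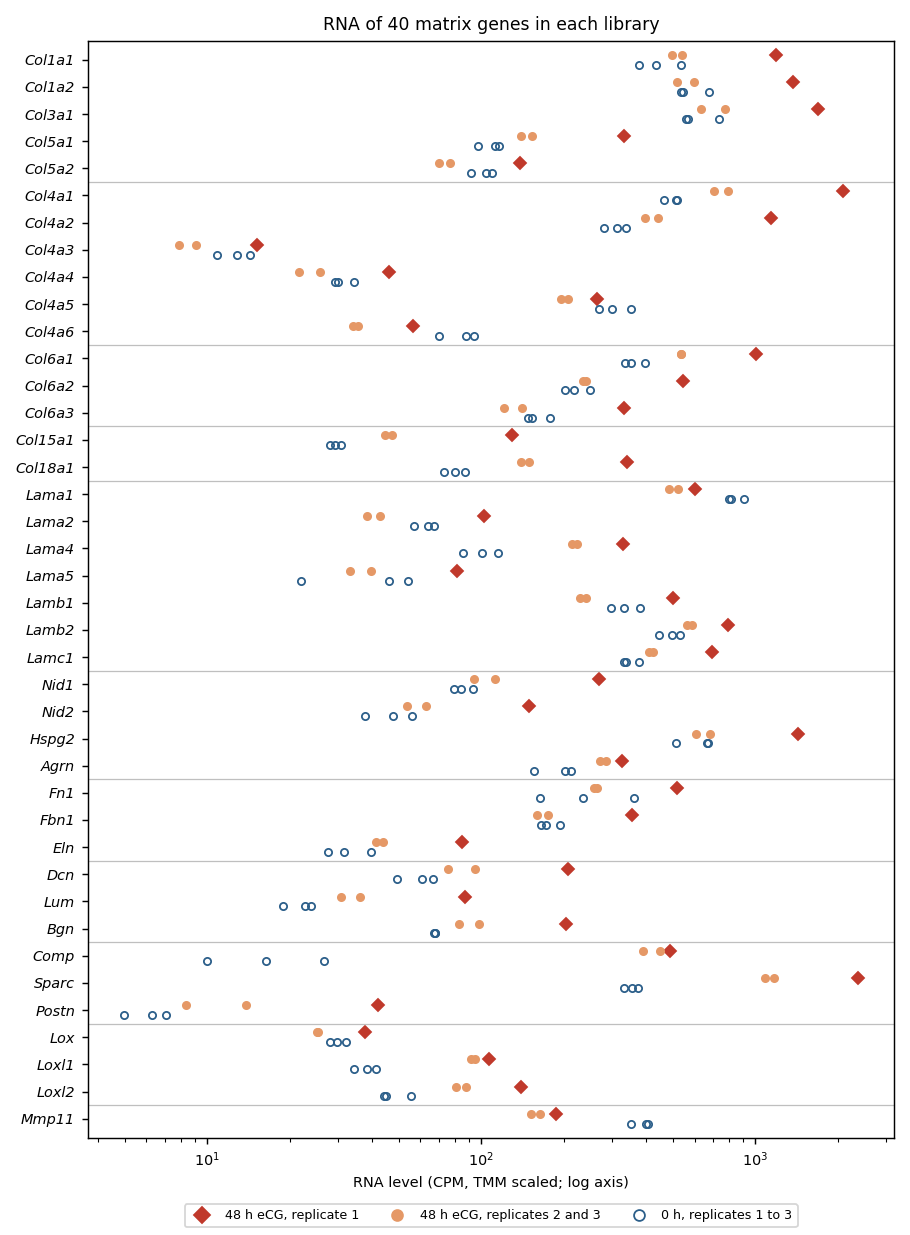
RNA level of the 40 matrix genes in each library, in CPM on a log axis, grouped by role with grey lines between groups. Red diamonds are 48 h replicate 1, orange points are 48 h replicates 2 and 3, and open blue circles are the 3 libraries at 0 h. Comp stands at 487, 388 and 448 CPM at 48 h eCG, far from 0 h, while genes such as Col1a2 lie far from 0 h in 48 h replicate 1 alone.

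In H3K4me3, tested in the same way, 6 of the 40 genes were called higher and 6 lower, where 6.35% of all genes tested were called higher and 2.08% lower. The higher genes were Col5a1, Lama4, Agrn, Comp, Sparc and Loxl1, and each of them was also called higher in RNA. Of the lower genes, Col4a5, Col4a6, Lama1 and Mmp11 were also lower in RNA, while Col3a1 and Col5a2 were not called in RNA. The same share over all genes called in H3K4me3 is not given here. This match between the assays therefore cannot be called particular to the 40 genes. With all libraries, no gene was called in opposite directions, 10 genes higher in RNA were not called in H3K4me3, and 18 were called in neither. Among these 10 genes, Dcn, Lum, Bgn and Postn had negative H3K4me3 log2 fold changes as each library was left out, opposite to RNA. They ran from -0.62 to -0.40 for Dcn, -0.67 to -0.29 for Lum, -0.30 to -0.055 for Bgn and -0.17 to -0.038 for Postn. Those of Col4a1, Col4a2, Col15a1, Col18a1 and Loxl2 stayed positive, and Col6a1 took both signs. The median log2 fold change in H3K4me3 was -0.03, against -0.0014 over all genes tested. Without 0 h replicate 1, 2 of the 40 were called higher and 2 lower, where 0.649% and 0.502% of all genes tested were. Without 0 h replicate 2, 2 were called higher and 3 lower, where 3.68% and 1.43% of all genes tested were. Without 48 h replicate 1, 5 were called higher and 5 lower (3.33% and 1.49% of all genes), and without 48 h replicate 2, 5 and 9 (8.45% and 2.83% of all genes). DESeq2 did not call Col3a1, Col5a1, Lama1, Agrn, Sparc or Loxl1. In edgeR, library size alone ended the calls of Col5a1, Agrn, Sparc and Loxl1, and leaving out the filter on low counts ended those of Agrn, Sparc and Loxl1. Calls of Comp, Lama4, Mmp11 and Col4a5, 4 of the 12 called genes, held in all 9 alternative fits, and the same share over all called genes is not given here. With 2 libraries per group, the SE and the p-values rest on variation shared across genes.

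**Figure D3:**
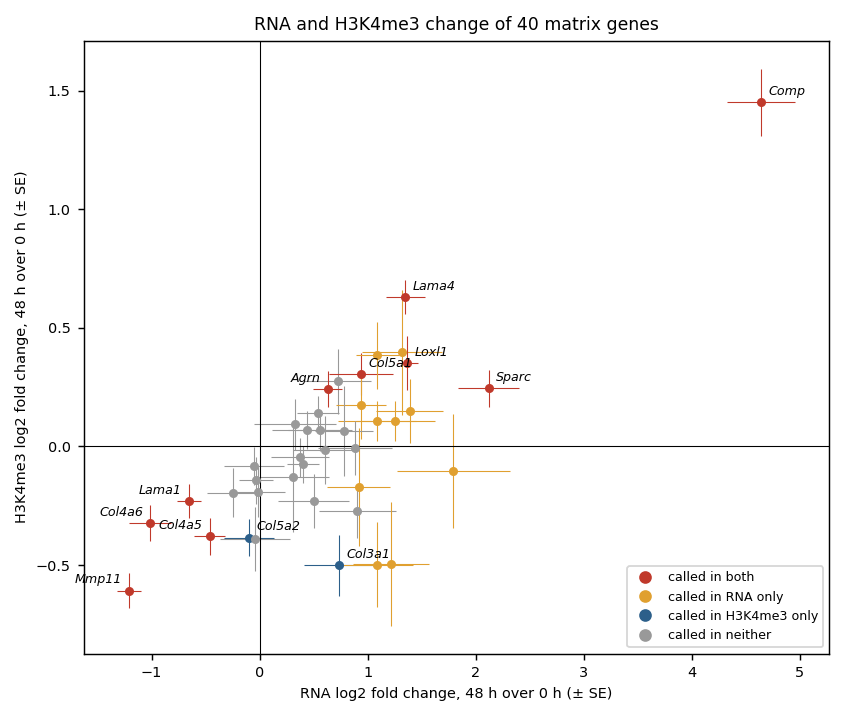
Log2 fold change of 48 h eCG over 0 h in RNA (x axis) and H3K4me3 (y axis) for the 40 matrix genes, with bars of 1 SE. Colours mark the assays in which a gene was called, and genes called in H3K4me3 are named. Comp lies at the upper right (4.65 and 1.45) and Mmp11 at the lower left (-1.21 and -0.61), and all 10 genes called in both have the same sign on both axes.

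Among the matricellular proteins, Comp changed most. Comp (cartilage oligomeric matrix protein; gene ID 12845; chromosome 8, 70373548 to 70382066, GRCm38.p6) is a thrombospondin family protein that binds collagens. Its RNA was at 487, 388 and 448 CPM at 48 h eCG, against 26.7, 10.03 and 16.5 CPM at 0 h. The groups were far apart in every library, and Comp rose 25.0-fold (log2 fold change 4.65 ± 0.32, adjusted p = 9.7e-05). Leaving out 48 h replicate 1 gave a log2 fold change of 4.58, and that library was only 0.22 above replicates 2 and 3. The H3K4me3 count of Comp was 22.0 and 23.7 CPM at 48 h eCG, against 10.04 and 6.32 CPM at 0 h, and it rose as well (log2 fold change 1.45 ± 0.14, adjusted p = 1.56e-10). The 0 h levels lay under 17.5 CPM, the 95th percentile of H3K4me3 over 5129 genes with no RNA count, and the 48 h levels lay above it.

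Sparc (gene ID 20692; chromosome 11, 55394159 to 55420080), a secreted glycoprotein that binds collagen, had 2361, 1079.8 and 1170.3 CPM at 48 h eCG, against 356, 331 and 374 CPM at 0 h. All 48 h libraries lay above all 0 h libraries, and Sparc rose 4.35-fold (log2 fold change 2.12 ± 0.28, adjusted p = 0.00114). The rise without 48 h replicate 1 was 1.67 on the log2 scale. In H3K4me3, Sparc had 52.5 and 57.8 CPM at 48 h eCG, against 48.4 and 44.6 CPM at 0 h, a small difference that passed the test (log2 fold change 0.25 ± 0.08, adjusted p = 0.036). That call was lost without either 0 h library or without 48 h replicate 2 (adjusted p up to 0.323 over all alternatives). The promoter of Sparc, from RefSeq GRCm38.p6, is shown because the gene was called higher in both assays. It runs from 250 bases before to 50 bases after the annotated start, chr11:55420031-55420330 on the minus strand, and holds none of the 5 motifs searched in the promoters.
Sparc: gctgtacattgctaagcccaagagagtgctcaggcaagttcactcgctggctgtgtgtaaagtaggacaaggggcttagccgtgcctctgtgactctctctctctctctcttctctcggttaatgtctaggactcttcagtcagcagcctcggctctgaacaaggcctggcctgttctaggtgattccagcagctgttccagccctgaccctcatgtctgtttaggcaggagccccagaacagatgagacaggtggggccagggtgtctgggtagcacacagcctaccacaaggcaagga

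Postn, periostin, which binds collagens and integrins, had 42.1, 8.40 and 13.8 CPM at 48 h eCG, against 6.30, 4.99 and 7.07 CPM at 0 h. The groups did not overlap, but 48 h replicate 1 lay 1.87 above the other 48 h libraries, the largest such difference among the 40 genes. Postn rose (log2 fold change 1.79 ± 0.53, adjusted p = 0.031), with a log2 fold change of 0.84 without 48 h replicate 1. The call was lost without any 1 of the 0 h libraries (adjusted p up to 0.0935). In H3K4me3 it had 3.90 and 3.82 CPM at 48 h eCG, against 4.35 and 3.91 CPM at 0 h and was not called.

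The 6 chains of type IV collagen, the sheet-forming collagen of basal laminae, did not move together. Their genes lie in head-to-head pairs on 3 chromosomes. In RNA, Col4a1 and Col4a2 were called higher and Col4a5 and Col4a6 lower, while Col4a3 and Col4a4 were not called until 48 h replicate 1 was left out. Col4a1 and Col4a2, which form the most widespread network, are transcribed in opposite directions, from starts 21 bp apart in their promoter entries. Col4a5 and Col4a6 start 1343 bp apart in theirs. The gene coordinates place some of these starts elsewhere. By them, Col4a1 and Col4a2 overlap by 85 bp, and Col4a5 and Col4a6 lie 1275 bp apart. The promoters of both pairs, again 250 bases before to 50 after the start of each entry, are shown because the pairs went in opposite directions. Each is written 5′ to 3′ on its own strand, with matches to the searched motifs on either strand in capitals: Col4a1 is chr8:11312777-11313076 on the minus strand, Col4a2 is chr8:11312555-11312854 on the plus strand, Col4a5 is chrX:141475169-141475468 on the plus strand and Col4a6 is chrX:141474027-141474326 on the minus strand.
Col4a1: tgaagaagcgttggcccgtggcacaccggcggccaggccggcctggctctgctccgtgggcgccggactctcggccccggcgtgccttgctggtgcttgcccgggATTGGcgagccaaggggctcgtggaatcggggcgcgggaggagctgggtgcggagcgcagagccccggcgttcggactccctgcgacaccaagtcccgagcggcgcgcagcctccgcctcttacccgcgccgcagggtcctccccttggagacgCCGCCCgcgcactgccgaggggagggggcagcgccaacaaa
Col4a2: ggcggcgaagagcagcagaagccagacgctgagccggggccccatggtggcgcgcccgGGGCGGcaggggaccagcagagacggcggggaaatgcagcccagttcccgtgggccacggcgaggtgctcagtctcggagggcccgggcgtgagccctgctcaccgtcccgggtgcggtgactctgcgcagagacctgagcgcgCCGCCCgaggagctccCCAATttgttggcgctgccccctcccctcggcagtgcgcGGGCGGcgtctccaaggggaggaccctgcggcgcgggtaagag
Col4a5: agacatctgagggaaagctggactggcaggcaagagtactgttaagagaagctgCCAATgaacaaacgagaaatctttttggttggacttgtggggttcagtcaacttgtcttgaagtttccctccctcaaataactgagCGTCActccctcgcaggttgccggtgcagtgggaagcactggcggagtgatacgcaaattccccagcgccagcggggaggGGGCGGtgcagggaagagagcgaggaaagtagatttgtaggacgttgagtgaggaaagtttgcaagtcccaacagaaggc
Col4a6: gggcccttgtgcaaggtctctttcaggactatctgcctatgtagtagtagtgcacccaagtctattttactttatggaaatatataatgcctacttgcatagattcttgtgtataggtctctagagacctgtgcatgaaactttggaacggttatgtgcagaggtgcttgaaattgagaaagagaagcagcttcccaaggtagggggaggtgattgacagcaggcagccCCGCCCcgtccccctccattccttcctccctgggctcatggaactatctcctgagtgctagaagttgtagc

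The Col4a1 and Col4a2 windows share 78 bases, read on opposite strands. Bases C and G made up 74% of the Col4a1 window and 73.7% of the Col4a2 window, against 52.7% for Col4a5, 48.3% for Col4a6 and a median of 52.7% over all promoters. The Col4a1 window held 37 CpG dinucleotides and the Col4a2 window 33, against 11 for Col4a5, 3 for Col4a6 and a median of 7. The GC box GGGCGG was found 1 time in Col4a1, 3 times in Col4a2, 1 time in Col4a5 and 1 time in Col4a6. The CCAAT box was found 1 time each in Col4a1, Col4a2 and Col4a5, and the letters TGACG, the core of a cAMP response element, 1 time in Col4a5.

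Promoter entries were found for 25 of the 40 genes, with 29 entries among them. Of these, 19 (65.5%) held a GC box (GGGCGG on either strand), against 35.7% of all promoters of the same length. The CCAAT box was in 8 (27.6%, against 37.4%), TATAAA in 2 (6.90%, against 13.6%), TGACG in 3 (10.3%, against 20.8%) and the E-box CACGTG in 0 (against 7.15%). These shares describe letters in a window and not sites that are used.

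Col4a1 (gene ID 12826; chromosome 8, 11198423 to 11312889) had 2078, 707 and 794 CPM at 48 h eCG, against 466, 519 and 514 CPM at 0 h in RNA. Col4a2 (gene ID 12827; chromosome 8, 11312805 to 11449287) had 1138, 394 and 442 CPM at 48 h eCG, against 281, 336 and 312 CPM at 0 h. In both genes 48 h replicate 1 was far above the other 48 h libraries, which still lay above every 0 h library. Col4a1 rose (log2 fold change 1.26 ± 0.36, adjusted p = 0.0297), and so did Col4a2 (log2 fold change 1.09 ± 0.36, adjusted p = 0.0474), with log2 fold changes of 0.58 and 0.43 without 48 h replicate 1. Both calls were lost without any 1 of the 0 h libraries, with adjusted p up to 0.086 for Col4a1 and 0.125 for Col4a2. Their H3K4me3 counts were identical in every library, so the mark cannot be assigned to either gene. These were 34.1 and 36.2 CPM at 48 h eCG, against 32.7 and 32.6 CPM at 0 h, a difference that was not called (log2 fold change 0.11 ± 0.09, adjusted p = 0.525). The 2 genes overlap by 85 bp, and reads from the overlap may not be told apart.

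Col4a5 (gene ID 12830; chromosome X, 141475370 to 141689236) had 265, 196 and 208 CPM at 48 h eCG, against 269, 299.7 and 351 CPM at 0 h in RNA. Col4a6 (gene ID 94216; chromosome X, 141165403 to 141474095), its neighbour, had 56.1, 33.9 and 35.5 CPM at 48 h eCG, against 70.3, 87.7 and 94.3 CPM at 0 h. In both genes every 48 h library was below every 0 h library, and for Col4a5 the nearest values were those of 48 h replicate 1 and 0 h replicate 1. Col4a6 fell (log2 fold change -1.01 ± 0.19, adjusted p = 0.0055), and by more without 48 h replicate 1 (-1.28). Col4a5 also fell (log2 fold change -0.46 ± 0.14, adjusted p = 0.0378; -0.61 without 48 h replicate 1), but its call was lost without 0 h replicate 2 or 3 and without 48 h replicate 2 or 3 and with the size factors of DESeq2 (adjusted p up to 0.158). The H3K4me3 count was 42.1 and 42.8 CPM at 48 h eCG, against 53.4 and 57.3 CPM at 0 h for Col4a5 and 41.6 and 41.8 CPM at 48 h eCG, against 50.5 and 54.0 CPM at 0 h for Col4a6. It was lower for both genes (log2 fold change -0.38 ± 0.08, adjusted p = 0.000529 for Col4a5; log2 fold change -0.32 ± 0.08, adjusted p = 0.00372 for Col4a6), and the call of Col4a6 was lost without either 0 h library (adjusted p up to 0.107). The counts of these neighbours were within 20% of each other in every library, so they may describe 1 shared region.

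Col4a3 had 15.2, 9.08 and 7.92 CPM at 48 h eCG, against 10.9, 12.9 and 14.4 CPM at 0 h, and its neighbour Col4a4 had 46.2, 21.7 and 25.8 CPM at 48 h eCG, against 30.02, 29.4 and 34.5 CPM at 0 h. Both chains build a collagen IV network best known from the kidney glomerulus. In both genes 48 h replicate 1 was the highest of the 6 libraries and replicates 2 and 3 were the lowest. With all libraries neither was called (log2 fold change -0.25 ± 0.24, adjusted p = 0.456 for Col4a3; log2 fold change -0.01 ± 0.25, adjusted p = 0.975 for Col4a4). Without 48 h replicate 1, both were called lower (Col4a3 -0.57 ± 0.16, adjusted p = 0.0282; 0.0282 to 0.888 over its alternatives; Col4a4 -0.41 ± 0.11, adjusted p = 0.0232; 0.0232 to 0.976 over its alternatives). Their H3K4me3 counts were also within 20% of each other and were not called.

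The laminins differed by chain. Each laminin is a trimer of an alpha, a beta and a gamma chain, and 4 alpha chains were among the genes. Lama4 (gene ID 16775; chromosome 10, 38965515 to 39110188), an alpha chain best known from vascular basal laminae, had 329, 214 and 223 CPM at 48 h eCG, against 115, 85.8 and 100.5 CPM at 0 h. Lama1 (gene ID 16772; chromosome 17, 67697127 to 67822645), the alpha chain of early basal laminae, had 602, 523 and 483 CPM at 48 h eCG, against 817, 803 and 910.4 CPM at 0 h. These alpha chains moved in opposite directions, with no overlap between groups in either gene. Lama4 rose (log2 fold change 1.35 ± 0.18, adjusted p = 0.00116), with a log2 fold change of 1.12 without 48 h replicate 1, and Lama1 fell (log2 fold change -0.65 ± 0.12, adjusted p = 0.00369), with -0.75 without it.

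H3K4me3 moved in the same direction as RNA at both genes. Lama4 had 74.4 and 79.3 CPM at 48 h eCG, against 49.95 and 49.4 CPM at 0 h (log2 fold change 0.63 ± 0.07, adjusted p = 1.52e-08). Lama1 had 120.4 and 125 CPM at 48 h eCG, against 136 and 153 CPM at 0 h (log2 fold change -0.23 ± 0.07, adjusted p = 0.0299). The H3K4me3 call of Lama1 was lost without either 0 h library and without 48 h replicate 1 (adjusted p up to 0.423), while that of Lama4 held in every alternative.

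Lama2, the alpha chain of muscle and nerve basal laminae, had 102, 38.2 and 42.8 CPM at 48 h eCG, against 63.9, 56.8 and 67.0 CPM at 0 h. Lamb1, a beta chain, had 500.0, 229 and 242 CPM at 48 h eCG, against 296, 331 and 378 CPM at 0 h. Lamc1, the most common gamma chain, had 694, 409 and 424 CPM at 48 h eCG, against 338, 332 and 377 CPM at 0 h. In Lama2 and Lamb1 the 0 h libraries lay between 48 h replicate 1 above and replicates 2 and 3 below, while for Lamc1 all 48 h libraries lay above 0 h. With all libraries, log2 fold changes were -0.04 for Lama2, -0.05 for Lamb1 and 0.54 for Lamc1, and edgeR called none of them. DESeq2 called Lamc1 higher with all libraries, as did edgeR with no filter on low counts and without 48 h replicate 2. Without 48 h replicate 1, Lama2 and Lamb1 were called lower and Lamc1 higher (Lama2 -0.63 ± 0.09, adjusted p = 0.00199; 0.00199 to 0.994 over its alternatives; Lamb1 -0.51 ± 0.11, adjusted p = 0.00923; 0.00923 to 0.972 over its alternatives; Lamc1 0.25 ± 0.08, adjusted p = 0.0421; 0.0135 to 0.148 over its alternatives).

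The remaining laminins, Lamb2 and Lama5, were not called by edgeR with or without 48 h replicate 1. Lamb2, a beta chain, had 794, 585 and 563 CPM at 48 h eCG, against 446, 497 and 529 CPM at 0 h, and its groups did not overlap (log2 fold change 0.40 ± 0.15, adjusted p = 0.0677). DESeq2 called Lamb2 higher (adjusted p = 0.0197; up to 0.23 over its alternatives). Lama5, the alpha chain found most widely in the adult, had 81.5, 33.2 and 39.6 CPM at 48 h eCG, against 21.9, 53.9 and 46.2 CPM at 0 h, with 0 h replicate 1 under all other libraries. With all libraries, Lama2, Lama5, Lamb1, Lamb2 and Lamc1 were not called in H3K4me3, with log2 fold changes of -0.39 for Lama2 to 0.14 for Lamc1.

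**Figure D4:**
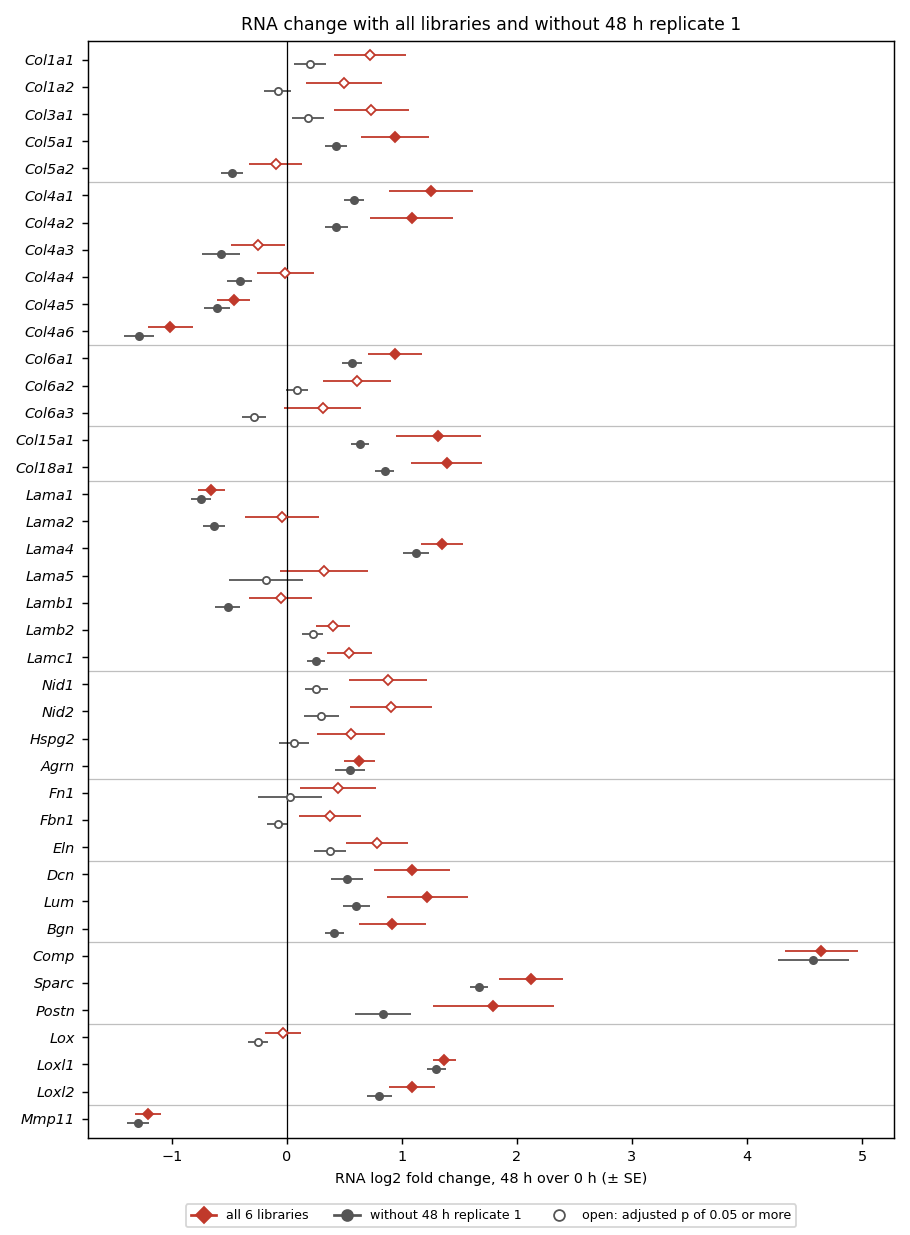
RNA log2 fold change of 48 h eCG over 0 h for each of the 40 genes, with bars of 1 SE, from all 6 libraries (red diamonds) and without 48 h replicate 1 (grey circles). Filled symbols mark an adjusted p under 0.05 in edgeR's quasi-likelihood test. The grey circle lies left of the red diamond for every gene, as for Col4a1 (1.26 with all libraries and 0.58 without), and Comp, Loxl1 and Mmp11 differ little between the fits.

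Of the proteins that join the collagen IV and laminin networks, Agrn was called. Agrn (gene ID 11603; chromosome 4, 156165290 to 156197533), agrin, a heparan sulfate proteoglycan of basal laminae, had 327, 285 and 271 CPM at 48 h eCG, against 155, 202 and 213 CPM at 0 h. The groups did not overlap, and 48 h replicate 1 was close to the other 48 h libraries (0.23 above them). Agrn rose (log2 fold change 0.63 ± 0.13, adjusted p = 0.00856; 0.55 without 48 h replicate 1). In H3K4me3 it had 53.9 and 51.1 CPM at 48 h eCG, against 45.0 and 43.7 CPM at 0 h, and was called higher (log2 fold change 0.24 ± 0.08, adjusted p = 0.0364). That call was lost in 8 of the 9 alternative fits, all but the one without 48 h replicate 2 (adjusted p up to 0.421).

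Hspg2, perlecan, had 1427, 605 and 685 CPM at 48 h eCG, against 512, 664 and 669 CPM at 0 h, Nid1 had 269, 94.3 and 112 CPM at 48 h eCG, against 79.9, 84.5 and 93.4 CPM at 0 h, and Nid2 had 149.6, 53.6 and 62.8 CPM at 48 h eCG, against 47.6, 37.8 and 56.1 CPM at 0 h. The nidogens Nid1 and Nid2 bind both laminin and collagen IV. In all 3 genes 48 h replicate 1 was the highest library. Replicates 2 and 3 lay just above the 0 h range for Nid1, whose groups did not overlap, and 1 of them lay inside it for Hspg2 and for Nid2. None was called with all libraries, at log2 fold changes of 0.56 for Hspg2, 0.88 for Nid1 and 0.91 for Nid2, and these were 0.07, 0.26 and 0.30 without 48 h replicate 1. Nid1 and Nid2 passed the test without 48 h replicate 2, and Nid1 also did with all libraries and no filter on low counts. None of the 3 was called in H3K4me3 with all libraries. Nid2 overlaps another gene, Rtraf, that is expressed in these libraries, so its RNA value is uncertain.

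The multiplexins, collagens XV and XVIII of basal lamina zones whose fragments are known to limit vessel growth, were both called higher in RNA. Col18a1 (gene ID 12822; chromosome 10, 77052178 to 77166530) had 341, 139.9 and 149 CPM at 48 h eCG, against 87.3, 72.8 and 80.1 CPM at 0 h. Col15a1 had 129, 44.5 and 47.2 CPM at 48 h eCG, against 28.1, 29.4 and 30.9 CPM at 0 h. Both genes had 48 h replicate 1 far above the other 48 h libraries, and no overlap between groups. Col18a1 rose (log2 fold change 1.39 ± 0.31, adjusted p = 0.0103; 0.85 without 48 h replicate 1), and so did Col15a1 (log2 fold change 1.32 ± 0.37, adjusted p = 0.0263; 0.63 without it). The call of Col15a1 was lost without any 1 of the 0 h libraries (adjusted p up to 0.0763). In H3K4me3, Col18a1 had 13.6 and 13.8 CPM at 48 h eCG, against 12.6 and 12.1 CPM at 0 h and Col15a1 had 4.50 and 3.37 CPM at 48 h eCG, against 2.69 and 3.32 CPM at 0 h. All of these levels lay under 17.5 CPM, the 95th percentile of genes with no RNA count, and neither gene was called.

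Of the fibrillar collagens, which form the tensile fibres of stroma and theca, Col5a1 was called in RNA. Col5a1, a chain of collagen V that sits inside collagen I fibrils, had 331, 139 and 153 CPM at 48 h eCG, against 97.3, 112 and 116 CPM at 0 h and rose (log2 fold change 0.94 ± 0.29, adjusted p = 0.0397; 0.43 without 48 h replicate 1). Its groups did not overlap, but the call was lost without any 1 of the 0 h libraries (adjusted p up to 0.111). Col5a2, the partner chain, had 139, 69.9 and 77.1 CPM at 48 h eCG, against 91.4, 104 and 109 CPM at 0 h. It was not called with all libraries (log2 fold change -0.10 ± 0.23, adjusted p = 0.779) and was lower without 48 h replicate 1 (-0.47 ± 0.10, adjusted p = 0.00738; 0.00738 to 0.951 over its alternatives).

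Col1a1 and Col1a2 are the chains of collagen I, and Col3a1 is the chain of collagen III. Col3a1 had 1687, 635 and 775 CPM at 48 h eCG, against 569, 558 and 735 CPM at 0 h, Col1a2 had 1375, 517 and 595 CPM at 48 h eCG, against 544, 537 and 678 CPM at 0 h, and Col1a1 had 1191, 496 and 539 CPM at 48 h eCG, against 377, 436 and 537 CPM at 0 h. In each gene 48 h replicate 1 was more than 1 log2 unit above the other 48 h libraries, which overlapped the 0 h range. None was called, and log2 fold changes of 0.73 for Col3a1, 0.50 for Col1a2 and 0.72 for Col1a1 came to 0.18, -0.08 and 0.20 without 48 h replicate 1.

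H3K4me3 separated the chains of collagen V. Col5a1 had 34.1 and 34.9 CPM at 48 h eCG, against 27.6 and 28.3 CPM at 0 h and was called higher (log2 fold change 0.30 ± 0.09, adjusted p = 0.0199). Col5a2 had 35.5 and 39.7 CPM at 48 h eCG, against 48.7 and 49.6 CPM at 0 h and was called lower (log2 fold change -0.38 ± 0.08, adjusted p = 0.000789). Col3a1, which lies 24625 bp from Col5a2 on chromosome 1, had 11.6 and 12.7 CPM at 48 h eCG, against 17.4 and 17.1 CPM at 0 h and was called lower too (log2 fold change -0.50 ± 0.13, adjusted p = 0.00802), with all 4 levels under 17.5 CPM. The calls of Col5a1 and Col3a1 were lost without either 0 h library, and that of Col5a2 without 0 h replicate 1 (adjusted p up to 0.483 for Col5a1, 0.31 for Col3a1 and 0.107 for Col5a2). Col1a1 and Col1a2 were not called with all libraries, and the log2 fold change of Col1a1 ran from 0.0038 to 0.48 as single libraries were left out.

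**Figure D5:**
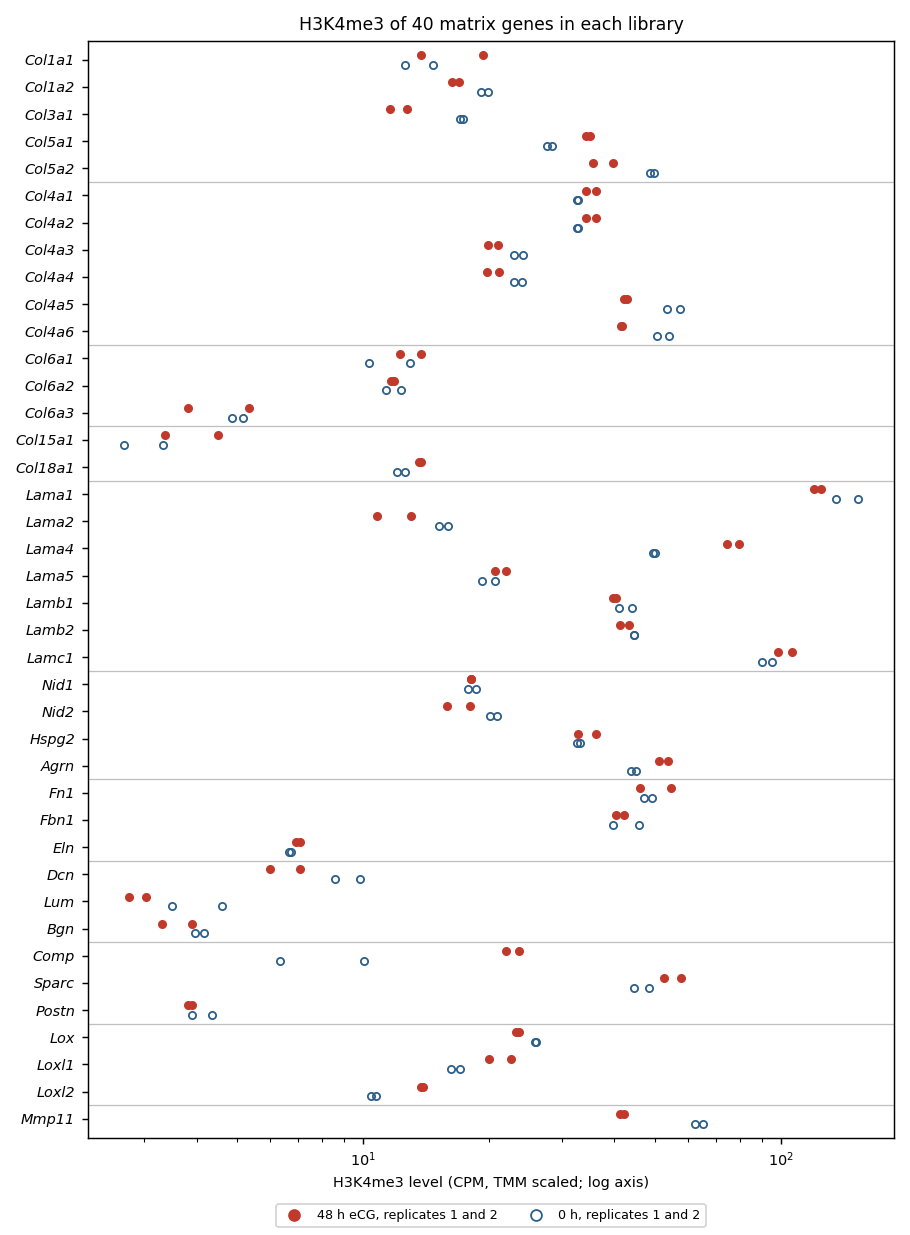
H3K4me3 level of the 40 matrix genes in each library, in CPM on a log axis, grouped by role as in the plot of RNA by library. Filled red points are 48 h replicates 1 and 2 and open blue circles are 0 h replicates 1 and 2. Lama4 (74.4 and 79.3 CPM at 48 h eCG, against 49.95 and 49.4 CPM at 0 h) and Comp lie to the right of 0 h, and Mmp11 (41.3 and 42.2 CPM, against 62.4 and 65.1 CPM) lies to the left.

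Collagen VI forms beaded microfilaments around cells from the chains Col6a1, Col6a2 and Col6a3. Col6a1 had 1005, 536 and 534 CPM at 48 h eCG, against 350.4, 335 and 397 CPM at 0 h, and Col6a2 had 545, 235 and 240.0 CPM at 48 h eCG, against 202, 218 and 249 CPM at 0 h. The 48 h libraries of Col6a1 all lay above 0 h, whereas those of Col6a2 overlapped it. Col6a1 rose (log2 fold change 0.94 ± 0.24, adjusted p = 0.0168; 0.57 without 48 h replicate 1), and its call was lost without 0 h replicate 1 or 2 (adjusted p up to 0.0561). Col6a2 (log2 fold change 0.61 ± 0.30, adjusted p = 0.151) and Col6a3 (log2 fold change 0.31 ± 0.33, adjusted p = 0.507) were not called, and Col6a3 came to -0.29 without 48 h replicate 1. None of the 3 was called in H3K4me3, where all lay under 17.5 CPM.

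No gene for fibronectin or elastic fibres was called. Fn1, fibronectin, had 516, 257 and 263 CPM at 48 h eCG, against 164, 362 and 236 CPM at 0 h, with 0 h libraries that spread as widely as the groups differed. Eln, elastin, had 85.3, 44.0 and 41.4 CPM at 48 h eCG, against 27.6, 31.5 and 39.7 CPM at 0 h, and Fbn1, fibrillin, the scaffold of elastic fibres, had 353, 159.7 and 175 CPM at 48 h eCG, against 165, 172 and 193 CPM at 0 h. Only Eln had groups that did not overlap (log2 fold change 0.78 ± 0.27, adjusted p = 0.0534), and without 48 h replicate 1 log2 fold changes were 0.03 for Fn1, 0.37 for Eln and -0.08 for Fbn1. By edgeR, 0 of the 3 passed in RNA and 1 had an unadjusted p under 0.05; DESeq2 called 1, Eln, and limma called 0. In H3K4me3, edgeR and DESeq2 called 0 of the 3, and 0 had an unadjusted p under 0.05 in either.

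All 3 small leucine-rich proteoglycans, which bind collagen fibrils, were called higher in RNA. Dcn, decorin, had 207, 75.9 and 94.7 CPM at 48 h eCG, against 49.3, 60.5 and 66.9 CPM at 0 h. Lum, lumican, had 87.0, 30.8 and 36.2 CPM at 48 h eCG, against 22.8, 19.0 and 24.0 CPM at 0 h. Bgn, biglycan, had 203, 82.7 and 98.4 CPM at 48 h eCG, against 67.8, 67.2 and 68.1 CPM at 0 h. In each, 48 h replicate 1 was more than 1 log2 unit above the other 48 h libraries, and these still lay above all 0 h libraries. Log2 fold changes were 1.09 for Dcn (adjusted p = 0.0355), 1.22 for Lum (adjusted p = 0.0288) and 0.92 for Bgn (adjusted p = 0.0405), and came to 0.52, 0.61 and 0.41 without 48 h replicate 1. All 3 calls were lost without any 1 of the 0 h libraries (adjusted p up to 0.106 for Dcn, 0.0869 for Lum and 0.105 for Bgn). In H3K4me3 none was called with all libraries and all lay under 17.5 CPM, with log2 fold changes of -0.50 for Dcn, -0.50 for Lum and -0.17 for Bgn.

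Of the lysyl oxidases, 2 of 3 were called higher in RNA. Loxl1 (gene ID 16949; chromosome 9, 58287723 to 58313212), known for its part in elastic fibres, had 107, 94.7 and 92.0 CPM at 48 h eCG, against 38.3, 34.3 and 41.2 CPM at 0 h. Loxl2 (gene ID 94352; chromosome 14, 69608692 to 69695834), which cross-links collagen IV, had 139, 80.5 and 88.3 CPM at 48 h eCG, against 44.1, 45.0 and 55.5 CPM at 0 h. Lox, the founding enzyme of the family, had 37.8, 25.3 and 25.3 CPM at 48 h eCG, against 29.8, 28.2 and 32.2 CPM at 0 h. The Loxl1 and Loxl2 groups did not overlap, and 48 h replicate 1 of Loxl1 was just 0.20 above the other 48 h libraries, the smallest difference among the 40 genes. Loxl1 rose (log2 fold change 1.37 ± 0.10, adjusted p = 0.000122; 1.30 without 48 h replicate 1), and Loxl2 rose (log2 fold change 1.09 ± 0.20, adjusted p = 0.00448; 0.80 without it). Lox was not called (log2 fold change -0.03 ± 0.16, adjusted p = 0.896). In H3K4me3, Loxl1 had 22.7 and 20.04 CPM at 48 h eCG, against 17.1 and 16.3 CPM at 0 h and was called higher (log2 fold change 0.35 ± 0.11, adjusted p = 0.0407), a call lost without either 0 h library and without 48 h replicate 1 (adjusted p up to 0.46). Loxl2 had 13.9 and 13.8 CPM at 48 h eCG, against 10.7 and 10.5 CPM at 0 h and was not called (log2 fold change 0.38 ± 0.14, adjusted p = 0.0815).

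Mmp11 (gene ID 17385; chromosome 10, 75923221 to 75932502), stromelysin-3, is a secreted metalloproteinase and was the gene with the largest called fall in RNA among the 40. It had 187, 163 and 151 CPM at 48 h eCG, against 406, 399 and 352 CPM at 0 h. Every 48 h library was under every 0 h library, and 48 h replicate 1 was close to the others. Mmp11 fell (log2 fold change -1.21 ± 0.11, adjusted p = 0.000284; -1.29 without 48 h replicate 1). Its H3K4me3 count was 41.3 and 42.2 CPM at 48 h eCG, against 62.4 and 65.1 CPM at 0 h, the largest called fall there as well (log2 fold change -0.61 ± 0.07, adjusted p = 5.76e-08). Both calls held in every alternative fit. Its RefSeq promoter, chr10:75932453-75932752 on the minus strand, is shown because both assays fell at this gene. It held 4 GC boxes, in capitals, and 67% of its bases were C or G.
Mmp11: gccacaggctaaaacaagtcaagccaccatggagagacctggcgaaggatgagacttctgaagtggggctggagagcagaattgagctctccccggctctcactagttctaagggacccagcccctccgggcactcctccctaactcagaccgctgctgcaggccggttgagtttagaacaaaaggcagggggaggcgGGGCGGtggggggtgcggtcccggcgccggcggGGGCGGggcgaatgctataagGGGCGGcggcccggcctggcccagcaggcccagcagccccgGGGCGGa

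A wider list of 133 other matrix genes gave the surroundings of these results. Of them, 121 could be tested in RNA, and 44 (36.4%) were called higher and 15 (12.4%) lower, with a median log2 fold change of 0.26. Over all genes tested, 16% were called higher and 15.8% lower, so the lower share of the list was under that of all genes. Without 48 h replicate 1 the calls were 40 higher (32.5%) and 23 lower (18.7%), against 18.2% and 17.9% of all genes, and the median was 0.09. The lower calls numbered 9 and 8 without 0 h replicate 2 or 3, and 9 and 7 without 48 h replicate 2 or 3, where 9.53%, 8.78%, 8.85% and 8.28% of all genes were lower. In H3K4me3, 13 of 133 (9.77%) were called higher and 16 (12.03%) lower, where 6.35% and 2.08% of all genes were. Leaving out a 0 h library left 1 in that group, and fewer genes were then called, in this list and over all genes alike.

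For each group within this list, the 2 largest called rises and falls are described. Because these 25 genes were chosen as called genes with large changes, separate groups and repeated calls follow in part from that choice. They say nothing about the list as a whole. Of these 25 genes, 24 had groups that did not overlap, 13 were called in all 12 alternative fits, and 1, Col13a1, lost its call without 48 h replicate 1. Leaving out at least 1 other library ended the calls of Col13a1, Npnt, Mfap4, Sdc1, Thbs3, Ddr1, Emilin2, Itga2, P4ha3, Col6a4, Loxl4 and Thbs1 (adjusted p up to 0.203 over the alternatives of Ddr1). DESeq2, limma and library size alone ended the call of Sdc1, and the size factors of DESeq2 those of Sdc1, Emilin2, Thbs3 and Ddr1.

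Among the collagen chains outside the main list, 6 of 24 tested (25.0%) rose and 5 (20.8%) fell, and 3 rose and 6 of 25 fell without 48 h replicate 1. Col8a1, a short-chain collagen of vessel walls, had 5.52, 5.52 and 4.62 CPM at 48 h eCG, against 1.54, 1.63 and 1.32 CPM at 0 h (log2 fold change 1.80 ± 0.23, adjusted p = 0.000973; 1.76 without 48 h replicate 1). Col13a1, a membrane collagen, had 4.37, 1.40 and 1.13 CPM at 48 h eCG, against 0.579, 0.692 and 0.686 CPM at 0 h and was called with all libraries (log2 fold change 1.78 ± 0.54, adjusted p = 0.0339). Without 48 h replicate 1, which held more than both other 48 h libraries together, the log2 fold change of Col13a1 was 0.96 and it was not called (adjusted p = 0.0596). Col9a2, a fibril-associated collagen, had 115, 60.9 and 83.6 CPM at 48 h eCG, against 283, 194 and 232 CPM at 0 h (log2 fold change -1.46 ± 0.22, adjusted p = 0.00211; -1.72 without 48 h replicate 1), and Col6a4, a further collagen VI chain, had 159, 68.3 and 94.7 CPM at 48 h eCG, against 208, 256 and 349 CPM at 0 h (log2 fold change -1.34 ± 0.30, adjusted p = 0.0101; -1.74 without 48 h replicate 1). The falls of Col9a2 and Col6a4 came with lower H3K4me3 (log2 fold change -0.71, adjusted p = 0.000216 for Col9a2; -0.76, adjusted p = 0.000915 for Col6a4).

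Other basal lamina genes counted 5 higher (41.7%) and 1 lower (8.33%) of 12 tested. Vwa1, a perlecan-binding protein, had 43.0, 12.3 and 18.2 CPM at 48 h eCG, against 6.11, 6.13 and 8.28 CPM at 0 h and rose (log2 fold change 1.83 ± 0.42, adjusted p = 0.0117; 1.14 without 48 h replicate 1). Npnt, nephronectin, had 25.1, 10.9 and 9.75 CPM at 48 h eCG, against 4.11, 6.62 and 5.86 CPM at 0 h and rose (log2 fold change 1.45 ± 0.36, adjusted p = 0.0164; 0.90 without 48 h replicate 1). In both, 48 h replicate 1 was far above the other 48 h libraries, and these still lay above all 0 h libraries. Ntn4, a netrin that binds laminin, had 42.9, 28.0 and 28.2 CPM at 48 h eCG, against 87.3, 87.5 and 84.1 CPM at 0 h and fell (log2 fold change -1.39 ± 0.16, adjusted p = 0.000633; -1.62 without 48 h replicate 1).

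Enzymes that modify and assemble collagen counted 13 higher (52.0%) and 3 lower (12%) of 25 tested, and as many of 26 without 48 h replicate 1. Colgalt2, a collagen galactosyltransferase, had 204, 185 and 171 CPM at 48 h eCG, against 81.3, 63.4 and 67.0 CPM at 0 h (log2 fold change 1.41 ± 0.12, adjusted p = 0.000204; 1.34 without 48 h replicate 1). Pcolce, an enhancer of procollagen cleavage, had 825, 295 and 395 CPM at 48 h eCG, against 209, 172 and 203 CPM at 0 h and rose too (log2 fold change 1.38 ± 0.33, adjusted p = 0.0135; 0.82 without 48 h replicate 1). The Pcolce level of 48 h replicate 1 stood far above the other 48 h libraries, and that of Colgalt2 did not. Adamts2, which removes the amino propeptide of procollagens, had 499.8, 355 and 322 CPM at 48 h eCG, against 912, 1086 and 1135 CPM at 0 h (log2 fold change -1.41 ± 0.17, adjusted p = 0.000885; -1.63 without 48 h replicate 1), and P4ha3, a prolyl hydroxylase subunit, had 2.53, 0.68 and 2.26 CPM at 48 h eCG, against 5.59, 5.14 and 5.49 CPM at 0 h and fell (log2 fold change -1.63 ± 0.42, adjusted p = 0.0179; -2.01 without 48 h replicate 1). The other lysyl oxidases both rose: Loxl3 had 49.8, 36.4 and 30.6 CPM at 48 h eCG, against 22.8, 19.6 and 22.5 CPM at 0 h (log2 fold change 0.85 ± 0.17, adjusted p = 0.00645; 0.64 without 48 h replicate 1), and Loxl4 had 4.68, 4.36 and 2.26 CPM at 48 h eCG, against 1.67, 1.28 and 1.58 CPM at 0 h (log2 fold change 1.33 ± 0.32, adjusted p = 0.0141; 1.17 without 48 h replicate 1).

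Elastic fibre genes counted 5 higher (33.3%) and 2 lower (13.3%) of 15 tested, and 4 higher and 5 lower without 48 h replicate 1. Ltbp1, which tethers latent TGF-beta to matrix, had 1071, 799 and 918 CPM at 48 h eCG, against 341, 339.9 and 317 CPM at 0 h (log2 fold change 1.48 ± 0.13, adjusted p = 0.000221; 1.37 without 48 h replicate 1), and Mfap4, a microfibril protein, had 51.2, 21.1 and 23.2 CPM at 48 h eCG, against 13.8, 11.7 and 14.3 CPM at 0 h and rose (log2 fold change 1.26 ± 0.31, adjusted p = 0.0163; 0.74 without 48 h replicate 1). Fbn2, a fibrillin, had 490.0, 365 and 388 CPM at 48 h eCG, against 592, 719 and 832 CPM at 0 h and fell (log2 fold change -0.79 ± 0.16, adjusted p = 0.0065; -0.93 without 48 h replicate 1). Emilin2 had 89.1, 67.1 and 64.4 CPM at 48 h eCG, against 88.4, 105 and 109 CPM at 0 h and fell (log2 fold change -0.46 ± 0.14, adjusted p = 0.0334; -0.62 without 48 h replicate 1), although its 48 h replicate 1 lay inside the 0 h range.

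Other proteoglycans and glycoproteins counted 9 higher (50%) and 2 lower (11.1%) of 18 tested, and 9 higher and 4 lower without 48 h replicate 1. Ecm1 had 558, 173 and 247 CPM at 48 h eCG, against 24.6, 26.5 and 29.0 CPM at 0 h (log2 fold change 3.61 ± 0.40, adjusted p = 0.000581; 2.97 without 48 h replicate 1), and Tgfbi, a collagen-binding protein, had 101, 42.7 and 60.4 CPM at 48 h eCG, against 19.4, 25.9 and 19.5 CPM at 0 h and was also higher (log2 fold change 1.64 ± 0.29, adjusted p = 0.00348; 1.23 without 48 h replicate 1). Thbs1, a thrombospondin like Comp in family, had 2271, 1936 and 1866 CPM at 48 h eCG, against 3339, 2863 and 2901 CPM at 0 h and fell (log2 fold change -0.58 ± 0.12, adjusted p = 0.00855; -0.67 without 48 h replicate 1). Thbs3, of the same family, had 14.2, 8.72 and 7.49 CPM at 48 h eCG, against 14.5, 18.2 and 15.9 CPM at 0 h and fell (log2 fold change -0.68 ± 0.23, adjusted p = 0.0474; -0.99 without 48 h replicate 1), with 48 h replicate 1 close to the 0 h libraries.

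Matrix receptors counted 4 higher (17.4%) and 2 lower (8.70%) of 23 tested, near the share of all genes for higher calls and under it for lower calls, and 5 higher and 4 lower without 48 h replicate 1. Itgb3, an integrin beta chain, had 137, 125 and 106 CPM at 48 h eCG, against 41.4, 53.6 and 50.1 CPM at 0 h and rose (log2 fold change 1.34 ± 0.13, adjusted p = 0.000296; 1.26 without 48 h replicate 1). Sdc1, syndecan, had 614, 255 and 336 CPM at 48 h eCG, against 227, 206 and 246 CPM at 0 h and rose (log2 fold change 0.83 ± 0.28, adjusted p = 0.0495; 0.38 without 48 h replicate 1). The collagen receptor Itga2 had 94.5, 80.3 and 68.9 CPM at 48 h eCG, against 98.2, 120.4 and 151 CPM at 0 h and fell (log2 fold change -0.60 ± 0.17, adjusted p = 0.0249; -0.72 without 48 h replicate 1), as did the collagen receptor Ddr1, with 209, 166 and 165 CPM at 48 h eCG, against 241, 214 and 232 CPM at 0 h (log2 fold change -0.35 ± 0.11, adjusted p = 0.0464; -0.47 without 48 h replicate 1).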

How the data were processed

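RNA and H3K4me3 were measured in the same 2 conditions. The authors deposited raw counts per gene ID in both tables, seen from whole numbers and library totals that differ. The submitters' processing notes name STAR, kallisto, sleuth, Picard and FastQC 0.11.5 for RNA, MACS2 2.2, ChIPseeker 1.18.0, Bowtie2 2.2.9 and Trimmomatic for ChIP-seq, and build mm10 for both. Which program counted, whether strand was used and which window was counted for H3K4me3 is not given in the sources used here, so H3K4me3 is called the count of a gene. Names of the H3K4me3 columns give the group and a number, which serves to name a library. The input DNA library was not used here.

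The 40 genes, their roles, the 133 other matrix genes, the marker lists and the tests were chosen with earlier results of these data known. Symbols and coordinates came from RefSeq for GRCm38.p6, the assembly of mm10; promoter windows came from the same table. In both assays, the test of 48 h against 0 h came from edgeR 4.0.16 (R 4.3.3; glmQLFit and glmQLFTest, TMM, filterByExpr) on the deposited counts, with Benjamini-Hochberg adjustment over all genes tested and a call at an adjusted p under 0.05. Fold changes are log2 of 48 h over 0 h, each followed by its SE, taken from the test statistic. CPM were computed here with TMM scaling, and levels are not compared between genes because no transcript lengths were used. The script was tested on simulated counts.

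Per-library values are given for each of the 40 genes that was called in RNA (with all libraries or without 48 h replicate 1) or in H3K4me3 and for the most abundant other gene of each role, for the 2 largest called rises and falls of each other matrix list, and for the 2 most abundant markers of a type; some further genes are given as well. Of the red cell markers, Alas2, Slc4a1 and the globin genes are reported here. Alternatives were DESeq2 1.42.0, limma 3.58.1 (RNA, prior count 2), DESeq2 size factors, library size alone, no filter on low counts, the replicate number as a block, and leaving out each library. Between libraries of a group, chi-square per degree of freedom was 5.16 to 38.5 in RNA, and 4.00 at 48 h and 1.69 at 0 h in H3K4me3. Libraries of a group thus differed by more than counting noise. These values cannot tell separate animals from repeat preparations of the same cells.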

Additional observations from a re-analysis of the deposited data

How the results depend on the processing

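All 40 genes passed the filter, but H3K4me3 under 17.5 CPM lies within the range of 95% of genes without RNA. Low counts also went with a wider SE in H3K4me3. Lum, with 42 to 72 counts per library, was not called at a log2 fold change of -0.50 ± 0.26. Col5a1, with 341 to 622 counts, was called at 0.30 ± 0.09. A gene that was not called may thus have had too few counts. No called gene of the 40 changed sign in the 12 RNA or 9 H3K4me3 alternatives. Library size alone moved the median of all genes in RNA to -0.20 from -0.03, with 26.8% of calls higher in place of 50.2% and 4222 genes lower; in H3K4me3, 52.3% of calls were higher in place of 75.4%, with 945 genes higher, 862 lower and 2 of the 40 higher. DESeq2 in H3K4me3 called 611 genes higher and 254 lower, 2 of the 40 higher, and 5 other matrix genes higher and 10 lower. Without the filter, 3 of the 40 were higher in H3K4me3, where 2038 of 24518 genes tested were called, 67.1% of them higher. The replicate numbers did not pair the libraries: deviations of same-numbered libraries correlated at -0.21, -0.15 and -0.13 in RNA and at 0.02 in H3K4me3. With them as a block, 12 of the 40 were higher and 3 lower in RNA, where 3312 of 14401 genes tested were called, 54.0% of them higher. In H3K4me3, 2 of the 40 were higher, as were 908 of 24476 genes tested. The block ended the RNA calls of Col5a1, Col4a1, Col4a2, Col4a5 and Dcn and the H3K4me3 calls of Col5a1, Lama1, Agrn, Sparc and Loxl1. Among the other matrix genes, it ended the RNA calls of Col13a1, Emilin2, Thbs3, Sdc1, Itga2 and Ddr1. A pseudocount of 0.1 CPM in place of 1 CPM for the difference of 48 h replicate 1 was chosen after seeing the data and gave the same median of 1.08 at 2 decimals. The cause of these shifts was not tested.

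Leaving out 1 library at a time gave 1580 to 2697 genes higher and 1228 to 2648 lower in RNA, with 7 to 20 of the 40 higher and 3 to 9 lower, and 30 to 42 other matrix genes higher and 7 to 23 lower. In H3K4me3 it gave 159 to 2070 higher and 123 to 694 lower, with 2 to 5 of the 40 higher and 2 to 9 lower, and 3 to 16 other matrix genes higher and 4 to 14 lower.

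Genes of the 40 that changed sign were not called with all libraries. Leaving out 1 library at a time, RNA log2 fold changes ran from the fit without 48 h replicate 1 to that without 48 h replicate 2: -0.079 to 0.78 for Col1a2, -0.47 to 0.11 for Col5a2, -0.41 to 0.23 for Col4a4, -0.29 to 0.60 for Col6a3, -0.63 to 0.24 for Lama2, -0.18 to 0.60 for Lama5, -0.51 to 0.17 for Lamb1, -0.081 to 0.61 for Fbn1 and -0.25 to 0.095 for Lox. Col4a4 had 0.021 with DESeq2 and 0.014 with its size factors. In H3K4me3 they ran from -0.0090 to 0.33 for Col6a1, -0.068 to 0.028 for Col6a2, -0.40 to 0.096 for Col6a3, -0.033 to 0.0048 for Nid1, -0.012 to 0.14 for Hspg2, -0.058 to 0.17 for Fn1 and -0.17 to 0.052 for Fbn1.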
